A study of Mus musculus with 2 samples.

Results

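The Hox genes encode homeodomain transcription factors that give cells of the embryo their position along the head-to-tail axis. In the mouse they lie in 4 clusters, Hoxa on chromosome 6, Hoxb on chromosome 11, Hoxc on chromosome 15 and Hoxd on chromosome 2, and the gene number within a cluster, called the paralog number, marks genes that descend from the same ancestral gene. Low-numbered (anterior) genes are used in the hindbrain and neck, and high-numbered (posterior) genes in the trunk, tail, limb and genital regions. The midbrain, where Otx2 is active, lies in front of the domain in which Hox genes are normally transcribed, and silent Hox clusters are a classic target of Polycomb repression. Here 38 listed Hox genes were described, out of 21668 protein-coding genes on chromosomes 1 to 19 and X. They were chosen by name and not by a cut on their values, but with earlier results of these data known. Hoxa and Hoxb had 10 members each, and Hoxc and Hoxd had 9 each.

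DNase-seq measures how accessible chromatin is, because the enzyme DNase I cuts DNA in nuclei where it is not packed away, and the cut ends are sequenced. The samples were midbrain of healthy mouse embryos of strain B6NCrl at day 11.5, with male and female embryos pooled, in 1 group of 2 biological replicates and with no other tissue, treatment or control. The replicates were sequenced on different sets of instruments, so effects of the instruments and of the embryos cannot be told apart. Read depth is unknown, since the deposited lists hold regions and not reads. Replicate 1 had 305818 peaks, short windows of 150 bp with a whole-number signal from 1 to 148, and replicate 2 had 454408 with a highest signal of 130. Each replicate also had a list of hotspots, stretches of elevated cutting of any width, 267486 in replicate 1 and 375482 in replicate 2. Because the tissue is a mixture of cells, a site open in few cells and a site weakly open in many cannot be told apart.

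The labelled tissue was checked at the transcription start sites (TSSs) of marker genes. Of 8 midbrain and isthmus markers, 6 had a peak within 500 bp of a TSS in both replicates, with signals of 73 and 56 at Otx2 and 111 and 82 at En2, and Lmx1b and Fgf8 had one in replicate 2 only. All 4 neural progenitor markers had one in both replicates. Of 4 blood markers only Tal1 had a TSS peak, with 64 and 66. Of 4 vessel markers Kdr had one in both replicates and Pecam1 in replicate 1 only, and of 4 mesenchyme markers Twist1 and Prrx1 did in both. The hindbrain gene Egr2, which switches on anterior Hox genes in hindbrain segments, also had TSS peaks in both replicates, with 115 and 73, and the part of hindbrain tissue in the values below was not tested.

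Most Hox genes had accessible chromatin at a TSS. A TSS peak, meaning a peak with any base within 500 bp of the TSS of a protein-coding transcript, was present at 26 of 38 Hox genes in replicate 1, against 68% of all protein-coding genes, and at 32 in replicate 2, against 69.5%. The mean was 29 ± 4.24 genes (SD, n = 2). Both replicates had one at 24 Hox genes, or 63.2%, close to the background of 65.5%. Among the 15633 genes whose CpG ratio (observed over expected CG dinucleotides in 1 kb around the most upstream TSS) was at least that of the lowest Hox gene, the background was 86.9%. Hox genes had CpG ratios from 0.256 at Hoxd4 to 0.996 at Hoxa5, with a median of 0.661 against 0.576 for all genes. Of the 24 Hox genes, 22 had peaks of the replicates that overlapped at the same TSS, against a background of 95.1%. The exceptions were Hoxa7 and Hoxb1, where the peaks of the replicates lay apart.

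**Figure D1:**
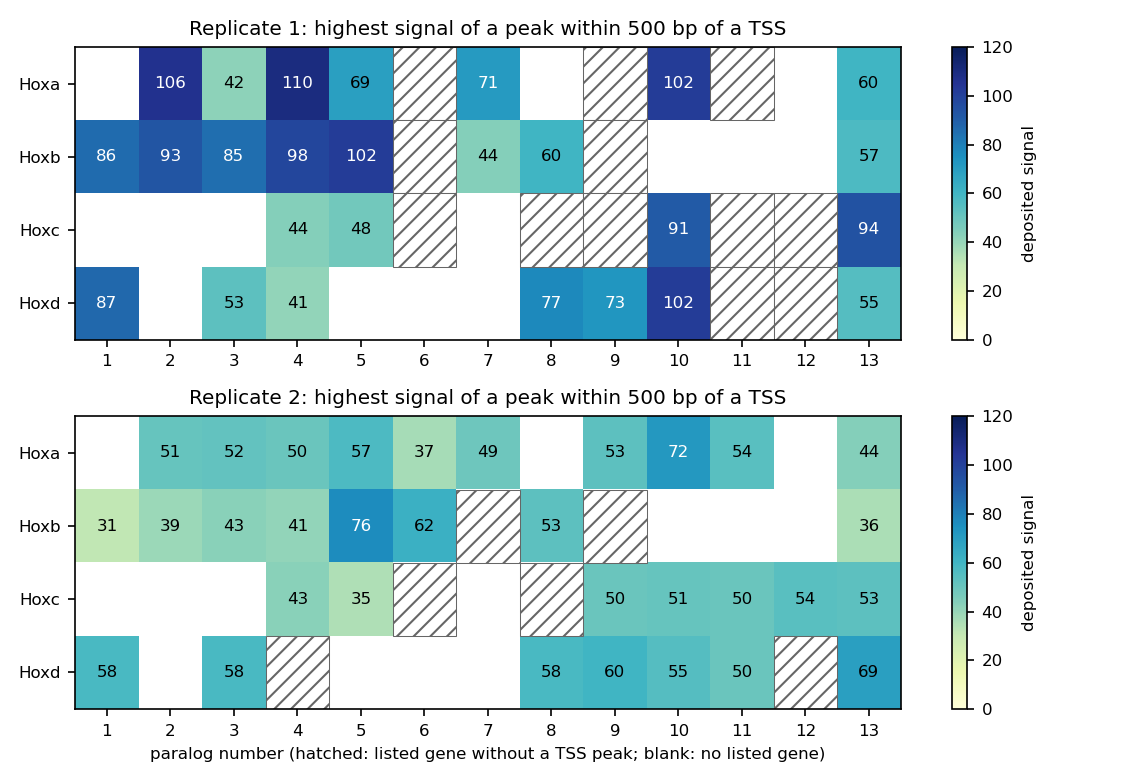
Highest deposited signal of a peak within 500 bp of a TSS, by cluster (rows) and paralog number (columns), for replicate 1 (top) and replicate 2 (bottom). Darker cells have a higher signal, hatched cells are listed genes with no TSS peak and blank cells have no listed gene. Paralogs 10 and 13 were filled in both replicates in every cluster that has them, whereas paralogs 6, 11 and 12 were hatched throughout in replicate 1.

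The share of open TSSs was 100% in anterior genes and 50% in posterior genes in replicate 1, and 90.9% and 87.5% in replicate 2. The 11 anterior genes (paralogs 1 to 4) had TSS peaks at 11 in replicate 1 and 10 in replicate 2. The 11 central genes (paralogs 5 to 8) had them at 7 and 8. The 16 posterior genes (paralogs 9 to 13) had them at 8 in replicate 1 and 14 in replicate 2, and so in both at 8. In percent of genes this was 95.5 ± 6.43 anterior, 68.2 ± 6.43 central and 68.8 ± 26.5 posterior (mean ± SD, n = 2). The anterior share lay above the central share in both replicates. The posterior share was below the central one in replicate 1, at 50% against 63.6%, and above it in replicate 2, at 87.5% against 72.7%, so their order was not resolved.

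Within the posterior genes the paralog groups differed from each other in replicate 1. All 3 genes of paralog group 10 and all 4 of group 13, the last genes of each cluster, had TSS peaks in both replicates. Of the 4 genes of group 9 only Hoxd9 had one in replicate 1, and 3 had one in replicate 2. None of the 3 genes of group 11 and none of the 2 of group 12 had a TSS peak in replicate 1. Replicate 2 had one at all 3 of group 11 and at Hoxc12. Group 6 in the central part was alike, with 0 of 3 in replicate 1 and 2 of 3 in replicate 2.

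Among clusters, Hoxc was the least open at its TSSs in replicate 1. TSS peaks were present at 7 of 10 Hoxa genes, 8 of 10 Hoxb genes, 4 of 9 Hoxc genes and 7 of 9 Hoxd genes in replicate 1. The counts in replicate 2 were 10, 8, 7 and 7. For both replicates together they were 7, 7, 4 and 6. In Hoxa and in Hoxc, 3 genes were open in replicate 2 only and none in replicate 1 only. In Hoxb and in Hoxd the totals were equal, but 1 gene was open in replicate 1 only and 1 in replicate 2 only.

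Where Hox TSSs were open, their peaks were weaker than those of most genes. The median TSS signal was 75 over the 26 Hox genes with a peak in replicate 1, with a range of 41 to 110, against 112 over all genes with a TSS peak. In replicate 2 it was 51.5, with a range of 31 to 76, against 68. Signals of separate lists are not on a stated common scale, so percentiles among genes with a TSS peak in the same replicate were used. The median of the mean percentile over the 24 Hox genes open in both replicates was 27. Only Hoxb5 reached a mean percentile above 50.

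In Hoxa the highest TSS signals were at Hoxa10, Hoxa4 and Hoxa2. Hoxa10, which patterns the lumbar trunk and the reproductive tract, had 102 in replicate 1 and 72 in replicate 2, the 39.7th and 57.8th percentiles. Hoxa4, a gene of the neck region, had 110 and 50. Hoxa2, which sets the identity of the second branchial arch and has the most forward expression limit of the Hox genes in the hindbrain, had 106 and 51. Hoxa5 (69 and 57), Hoxa7 (71 and 49), Hoxa13 (60 and 44) and Hoxa3 (42 and 52) were also open in both. The only TSS of Hoxa3 in the annotation used lies beyond Hoxa6, far upstream of the coding exons, so its peak lies nearer to Hoxa6 and Hoxa7 than to its own coding sequence.

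In Hoxb the highest were Hoxb5, Hoxb4 and Hoxb2. Hoxb5 had 102 and 76, and its strongest peaks lay 261 bp upstream of the TSS in replicate 1 and 301 bp upstream in replicate 2 (peak centre). Hoxb4, a gene of the caudal hindbrain, had 98 and 41, and Hoxb2, a target of Egr2 in the hindbrain, had 93 and 39. Hoxb1, the marker of rhombomere 4, had 86 in replicate 1 and 31 in replicate 2, the lowest Hox value of that replicate. The anterior genes Hoxb1 to Hoxb4 lay between 85 and 98 in replicate 1 and between 31 and 43 in replicate 2, a narrow range in each. Hoxb13, at the far posterior end, had 57 and 36, and Hoxb8 had 60 and 53.

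In Hoxc the highest were Hoxc13, Hoxc10 and Hoxc4. Hoxc13, a regulator of hair and nail formation in the adult, had 94 and 53. Hoxc10, a gene of lumbar motor neurons, had 91 and 51. Hoxc4 had 44 and 43, and Hoxc5 had 48 and 35. In this cluster the posterior genes that were open in both replicates thus lay above the anterior and central ones in both lists.

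In Hoxd the highest were Hoxd10, Hoxd13 and Hoxd1. Hoxd10, which acts in lumbar motor neurons and limbs, had 102 and 55. Hoxd13, the main Hox gene of digits, had 55 and 69, the 14.8th and 51.9th percentiles. Hoxd1 had 87 and 58, Hoxd8 had 77 and 58 and Hoxd9 had 73 and 60. Hoxd3 had 53 and 58, at different TSSs, since its strongest peaks in the replicates lay 23920 bp apart. The Hoxd genes spanned 50 to 69 in replicate 2.

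No peak lay at a TSS of 4 members, Hoxb9, Hoxc6, Hoxc8 and Hoxd12, in either replicate. Replicate 1 called 68.4% of Hox genes at a TSS, replicate 2 called 84.2% and both called 63.2%. Over all protein-coding genes these shares were 68%, 69.5% and 65.5%. Genes called by neither replicate were thus a smaller share of the Hox genes than of all genes. At Hoxb9 the nearest peak lay 7393 bp from a TSS in replicate 1 and 893 bp in replicate 2. At Hoxc6, a gene of the brachial spinal cord, the distances were 1083 and 1543 bp, and at Hoxc8 they were 2922 and 1309 bp. At Hoxd12 they were 1788 and 503 bp, so that this gene missed the 500 bp window of replicate 2 by 3 bp. Their CpG ratios, from 0.485 at Hoxc6 to 0.803 at Hoxb9, lay inside the range of the other members. At Hoxb9 hotspots covered 0% of the bases within 5 kb of the TSS in replicate 1 and 43.3% in replicate 2.

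Another 10 genes had a TSS peak in 1 replicate only, 2 in replicate 1 and 8 in replicate 2. Over all 21668 protein-coding genes, replicate 1 called 14727 at a TSS, replicate 2 called 15050 and both called 14190. Genes called by a single replicate were thus a larger share of the Hox genes than of all genes. Replicate 1 alone had a peak at Hoxb7, with a signal of 44, and at Hoxd4, with 41. Replicate 2 alone had peaks at Hoxa6 (37), Hoxa9 (53), Hoxa11 (54), Hoxb6 (62), Hoxc9 (50), Hoxc11 (50), Hoxc12 (54) and Hoxd11 (50). Among all genes with a TSS peak in replicate 2 they lay below the median, with percentiles from 15.1 at Hoxa6 to 40.3 at Hoxb6. In replicate 1 the nearest peak to these 8 genes lay from 606 bp away at Hoxa11 to 4424 bp away at Hoxc9. Hoxa9 had 9 peaks of replicate 2 within its TSS windows and none of replicate 1.

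The upstream sequence of a gene open in both replicates, Hoxd10, is shown beside that of its neighbour Hoxd12, which was open in neither. Both are the 250 bases before the TSS on the plus strand of chromosome 2 (RefSeq, GRCm38.p6), chr2:74691641-74691890 for Hoxd10 and chr2:74674763-74675012 for Hoxd12. Capitals mark bases covered by a peak of both replicates, 90 bases at Hoxd10 and 0 at Hoxd12.
Hoxd10: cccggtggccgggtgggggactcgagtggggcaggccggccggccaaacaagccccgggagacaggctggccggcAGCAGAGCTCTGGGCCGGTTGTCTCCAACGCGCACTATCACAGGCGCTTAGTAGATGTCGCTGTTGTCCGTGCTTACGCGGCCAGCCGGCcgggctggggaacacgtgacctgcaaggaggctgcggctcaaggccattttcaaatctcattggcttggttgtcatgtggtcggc
Hoxd12: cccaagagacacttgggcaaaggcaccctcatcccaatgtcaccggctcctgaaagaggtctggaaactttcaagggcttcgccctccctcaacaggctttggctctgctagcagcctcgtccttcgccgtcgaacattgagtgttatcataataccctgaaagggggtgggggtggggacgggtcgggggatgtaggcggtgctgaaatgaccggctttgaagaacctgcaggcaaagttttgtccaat
Of the 38 members, 22 had an entry in the RefSeq promoter table.

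Across the whole clusters, from the first to the last member TSS, accessible sites were dense. The clusters spanned chr6:52164831-52260880 (Hoxa), chr11:96194316-96365752 (Hoxb), chr15:102921103-103034395 (Hoxc) and chr2:74668310-74762980 (Hoxd) on mm10, 475 kb in all. They held 178 peaks of replicate 1 and 456 of replicate 2. Merging overlapping peaks gave 478 regions, of which 87, or 18.2%, held peaks of both replicates and are called shared sites, against a background of 15.4% over the genome. Hoxd had the most shared sites per length, 31.7 per 100 kb, followed by Hoxa with 18.7, Hoxb with 14.6 and Hoxc with 12.4. The genome had 3.41 per 100 kb.

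**Figure D2:**
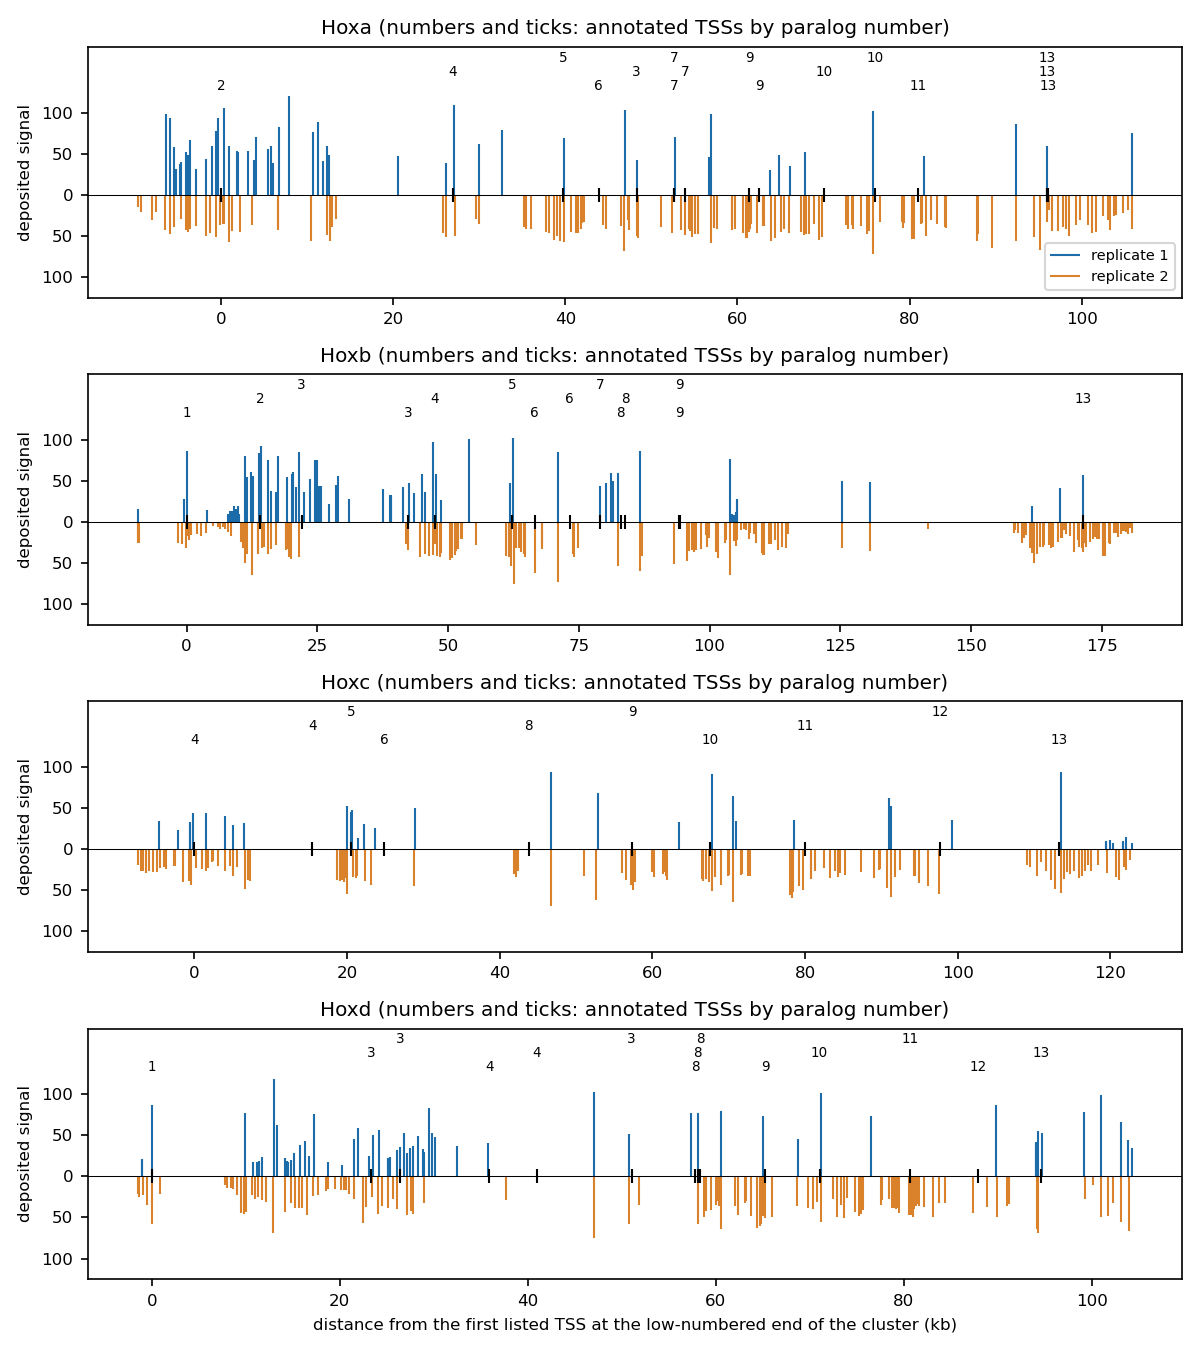
Peaks along each cluster, with distance in kb from the low-numbered end on the horizontal axis and the deposited signal on the vertical axis, replicate 1 upward and replicate 2 downward. Numbers at the top mark annotated TSSs by paralog number, and a gene with several TSSs appears more than once. Peaks of replicate 1 were crowded near the low-numbered end of Hoxa, Hoxb and Hoxd, whereas peaks of replicate 2 ran through most of each cluster.

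The replicates had equal numbers of peaks at the anterior end of the clusters and diverged towards the posterior end. Peaks were counted between the start codons of neighbouring members. Over the 7 intervals between anterior genes, replicate 1 had 103 peaks and replicate 2 had 103, a ratio of 1. Over the 7 intervals between central genes the counts were 16 and 41, a ratio of 2.56. Over the 12 intervals between posterior genes they were 35 and 218, a ratio of 6.23, against 1.49 over the genome. The 4 intervals from an anterior to a central gene had 18 and 55 peaks, a ratio of 3.06. The 4 from a central to a posterior gene had 7 and 39, a ratio of 5.57. The ratio thus did not rise steadily along the clusters, and between Hoxd4 and Hoxd8 the counts were equal, 4 and 4. Replicate 2 had more peaks in 12 of the 12 posterior intervals and in 3 of the 7 anterior ones.

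Peaks of replicate 1 fell from 9.37 per 10 kb in the anterior intervals to 1.73 in the posterior ones, while those of replicate 2 went from 9.37 to 10.8. Each cluster with posterior intervals gave a similar ratio there, 6.12 in Hoxa, 6.5 in Hoxb, 6.67 in Hoxc and 5.5 in Hoxd. The anterior ratios were 0.842 in Hoxa, 0.977 in Hoxb and 1.1 in Hoxd. The central ratios differed between clusters, with 5.67 in Hoxa, close to its posterior ratio, 2 in Hoxb and 1.67 in Hoxc. Shared sites fell from 3.46 per 10 kb in the anterior intervals to 1.75 in the central and 0.99 in the posterior ones. With 1 library on each side, no error can be put on these ratios.

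**Figure D3:**
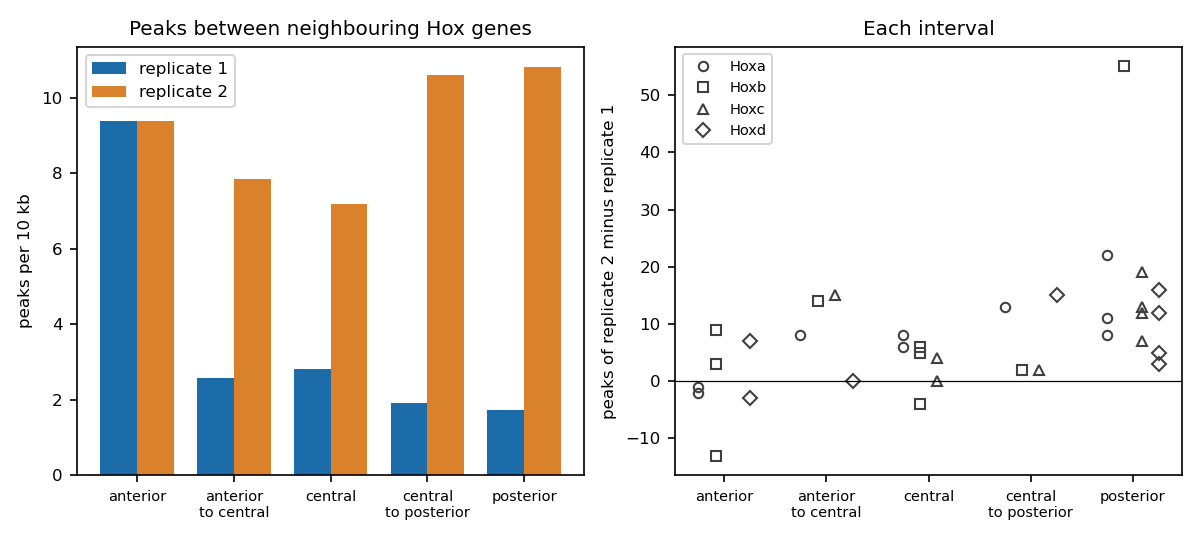
Left, peaks per 10 kb between neighbouring Hox genes in each replicate, by the zone of the interval, and right, peaks of replicate 2 minus peaks of replicate 1 in each interval, with a symbol for each cluster. Replicates 1 and 2 both had 9.37 peaks per 10 kb in the anterior intervals, and 1.73 and 10.8 in the posterior ones, where all 12 points lie above 0.

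Single intervals showed how local the difference was. Between Hoxb9 and Hoxb13, the longest stretch without a Hox gene at 77.1 kb, replicate 1 had 10 peaks and replicate 2 had 65. Between Hoxd11 and Hoxd12 the counts were 0 and 12, and between Hoxa9 and Hoxa10 they were 4 and 26. Replicate 1 had more peaks between Hoxb3 and Hoxb4, 20 against 7, and between Hoxb7 and Hoxb8, 5 against 1. The densest stretches of shared sites lay between Hoxc5 and Hoxc6 (6.7 per 10 kb), Hoxd1 and Hoxd3 (6.29), Hoxd3 and Hoxd4 (5.38) and Hoxb2 and Hoxb3 (5.29).

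Sites found in 1 replicate had higher signals in the clusters than over the genome. In the clusters, 309 regions held peaks of replicate 2 only, with a median signal of 36 against 6 for such regions over the genome. The 82 regions of replicate 1 only had a median of 47 against 11. Shared sites had medians of 52 in replicate 1, against 49 over the genome, and 43 in replicate 2, against 27. The ratio of replicate 2 to replicate 1 peaks also moved with base composition over the genome, from 1.62 in peaks under 40% GC to 1.01 in peaks of 65% GC or more. In the Hox clusters it was above the genome's in each of the 7 GC classes, with 2 against 1.62 under 40% GC and 1.77 against 1.01 at 65% or more. The cause of the difference between the replicates was not tested.

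Hotspots gave the same contrast in covered length. Hotspots covered 10% of the Hoxa cluster in replicate 1 and 28.6% in replicate 2, 10.1% and 30% of Hoxb, 4.61% and 24.8% of Hoxc and 19.6% and 36.7% of Hoxd. The genome was covered to 3.13% and 4.82%. All 4 clusters were thus covered more than the genome in both replicates, and Hoxc least. For the 4 clusters together, the mean of the replicates was 20.2 ± 13.6% of bases (SD, n = 2).

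**Figure D4:**
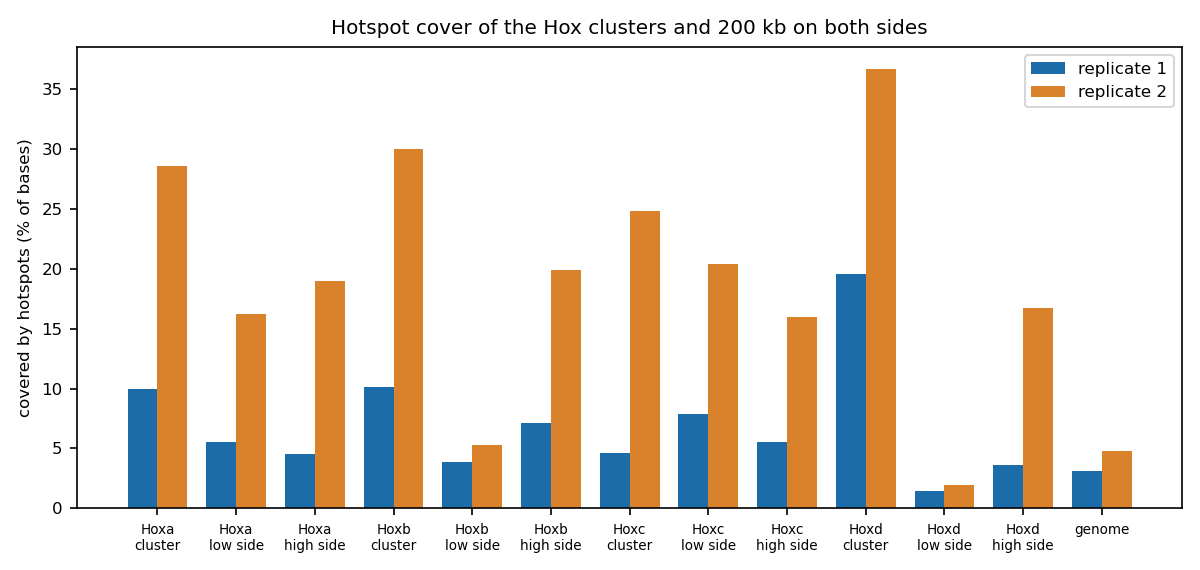
Share of bases covered by hotspots in each cluster, in 200 kb beside its low-numbered end (low side) and its high-numbered end (high side), and over the genome, for each replicate. Cover by replicate 2 reached 36.7% in Hoxd and was higher than cover by replicate 1 in every region, and the low side of Hoxd was below the genome in both replicates.

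Replicate 2 had very wide hotspots in the clusters. The widest held the TSS of Hoxa2 near its end and spanned 13282 bp, the 9th widest of its 375482 hotspots. Replicate 1 had 1774 bp at the same TSS, and its hotspots covered 41.6% of the wide one. A hotspot of 7557 bp lay over Hoxb13 in replicate 2, and hotspots of replicate 1 covered 3.24% of it. In Hoxd a hotspot of 6970 bp, over the 3′ end of Hoxd3 and on towards Hoxd1, was covered to 74.9% by replicate 1. At least 2 kb wide were 2 hotspots of replicate 1 and 14 of replicate 2 in the 4 clusters, and 1454 and 5815 over the genome.

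Wide cover in replicate 2 was seen at other homeobox genes too. Within 5 kb of the most upstream TSS, the median cover was 5.7% at Hox genes in replicate 1 and 31.4% in replicate 2, against 10.2% and 15.8% over all genes. At the 6 Irx genes, clustered homeobox genes of the neural plate, it was 70.6% and 89%, and at the 6 Dlx genes, which act in the forebrain and branchial arches, 26.2% and 81.4%. At the 8 midbrain markers it was 31.6% and 92.6%. Hox genes therefore had less cover than these 3 lists in both replicates, and in replicate 2 more than all genes. TSS peaks in both replicates were present at 6 of 6 Irx genes and 4 of 6 Dlx genes, with Dlx1 and Dlx4 open in replicate 2 only.

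The region around the clusters was uneven. Shared sites numbered 11.5 per 100 kb on the low-numbered side of Hoxa and 8 on its high-numbered side, 5.5 and 13 beside Hoxb and 13.5 and 10 beside Hoxc. Beside Hoxd they numbered 1 on the low-numbered side and 6.5 on the high-numbered side. The low-numbered side of Hoxd, the direction of a known gene desert, had 11 peaks in replicate 1 and 13 in replicate 2, and was the only flank with fewer shared sites per length than the genome.

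The strongest shared site of most flanks was the promoter of a neighbouring gene that is not a Hox gene. Signals were 131 and 87 at Skap2, on the low-numbered side of Hoxa, and 135 and 91 at Ube2z, on the high-numbered side of Hoxb. Beside Hoxd they were 103 and 71 at Mtx2 and 125 and 73 at Lnpk, genes on either side of the cluster. Beside Hoxc they were 126 and 84 at Calcoco1 and, near Smug1, 126 and 72. On the high-numbered side of Hoxa the strongest was an intergenic site, chr6:52306036-52306225, with 95 and 59, 7367 bp upstream of Evx1, a homeobox gene at the end of the cluster. On the low-numbered side of Hoxb it was an intergenic site 42149 bp past the TSS of Hoxb1, with 83 and 40. Evx1 (36 and 47) and Evx2 (66 and 66) had TSS peaks in both replicates.

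Inside the clusters the strongest shared sites were a mixture of promoters and sites between genes. In Hoxa the strongest was chr6:52240456-52240625, with signals of 102 and 72, 313 bp inside Hoxa10. In Hoxb it was chr11:96303136-96303325, with 102 and 76, 281 bp upstream of Hoxb5. In Hoxc it was chr15:102987536-102987685, with 94 and 69, between Hoxc8 and Hoxc9. In Hoxd it was chr2:74749936-74750125, with 119 and 69, in a noncoding exon between Hoxd1 and the start codon of Hoxd3. Of 87 shared sites, those within 500 bp of a member TSS numbered 6 of 18 in Hoxa, 7 of 25 in Hoxb, 2 of 14 in Hoxc and 8 of 30 in Hoxd.

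Each cluster had a strong shared site between its paralog 9 gene and the next lower-numbered gene. This set was picked out after its values were seen and is a description. The site between Hoxa7 and Hoxa9 had signals of 99 and 59, that between Hoxb8 and Hoxb9 had 86 and 59, that between Hoxc8 and Hoxc9 had 94 and 69, and that between Hoxd8 and Hoxd9 had 80 and 64. They ranked 3rd of 18, 3rd of 25, 1st of 14 and 5th of 30 among the shared sites of their clusters by mean percentile of signal. They lay 3080, 2924, 2996 and 2214 bp upstream of the nearest TSS of the lower-numbered gene, among the TSSs used here. The Hoxa site, however, covers the annotated 5′ end of Hoxa7 at position 52221854, which is not among those TSSs. In Hoxa, Hoxb and Hoxc the site was the only shared site between the TSSs of the flanking genes, and in Hoxd there were 2.

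**Figure D5:**
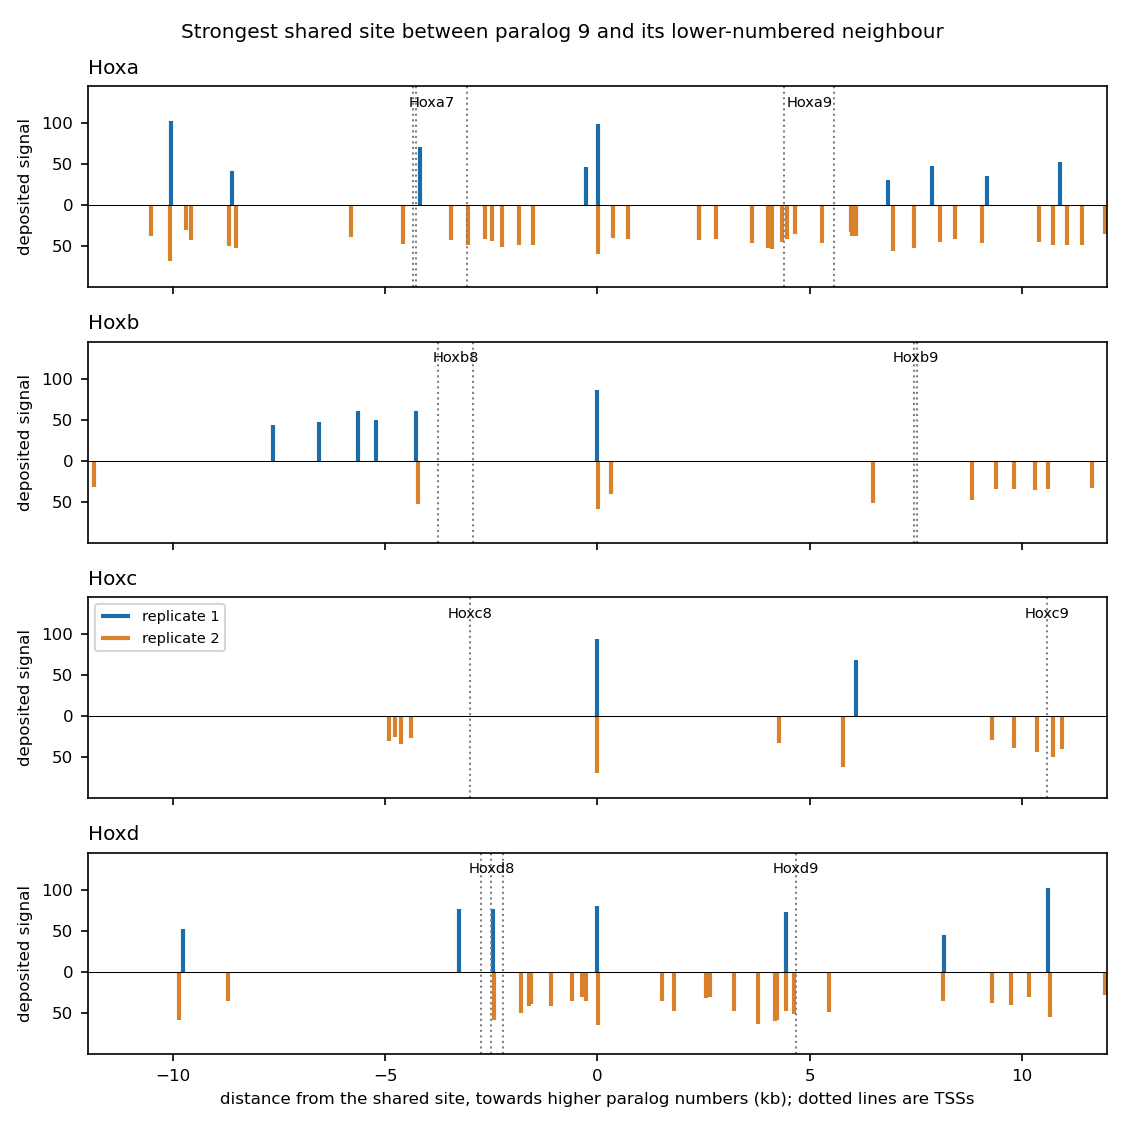
Peaks within 12 kb of the strongest shared site between paralog 9 and its lower-numbered neighbour, with distance in kb towards higher paralog numbers on the horizontal axis and the deposited signal of replicate 1 (upward) and replicate 2 (downward) on the vertical axis. Dotted lines are TSSs of the flanking genes. The site at 0 had signals from 80 to 99 in replicate 1 and from 59 to 69 in replicate 2. It lay 2214 to 3080 bp from the nearest dotted TSS of the lower-numbered gene. In Hoxa it also covers the annotated 5′ end of Hoxa7, which has no dotted line.

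CTCF, a zinc finger protein that marks boundaries of chromatin loops and is known to bind between Hox genes, has a core sequence that was searched in these sites as CCNNNAGGNGGC or CCNNNAGANGGC on both strands, in 150 bp around the site's midpoint. The core was found in 7 of the 87 shared sites of the clusters, or 8.05%, against 14% of all shared sites. It was in the sites between Hoxa7 and Hoxa9 and between Hoxb8 and Hoxb9. In the sites between Hoxc8 and Hoxc9 and between Hoxd8 and Hoxd9 the closest stretch differed from it at 1 of 8 fixed positions, a likeness that 45.2% of all shared sites reach. The sequences below are the plus strand of mm10 (GRCm38.p6), from chr6:52221800-52221829, chr11:96278906-96279055, chr15:102987536-102987685 and chr2:74702326-74702475, with the core or its closest stretch in capitals. The Hoxa site lies in an untranslated first exon of a Hoxa7 transcript that is outside the basic set used for the TSS peaks, so only 30 bases are given. The Hoxc site is in an intron and the others are intergenic.
Hoxa7 to Hoxa9: agccacactGCCATCTCCTGGaattttctt
Hoxb8 to Hoxb9: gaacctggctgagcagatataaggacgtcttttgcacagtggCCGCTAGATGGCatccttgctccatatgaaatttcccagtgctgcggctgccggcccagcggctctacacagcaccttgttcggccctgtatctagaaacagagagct
Hoxc8 to Hoxc9: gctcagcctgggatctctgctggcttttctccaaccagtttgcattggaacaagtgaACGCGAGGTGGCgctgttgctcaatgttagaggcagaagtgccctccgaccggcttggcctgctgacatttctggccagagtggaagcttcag
Hoxd8 to Hoxd9: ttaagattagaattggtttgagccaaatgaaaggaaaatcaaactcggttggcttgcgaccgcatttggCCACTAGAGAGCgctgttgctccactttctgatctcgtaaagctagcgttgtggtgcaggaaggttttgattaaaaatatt

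Of the other 5 sites with the core, 2 lay within 500 bp of a TSS, at Hoxa10 and Hoxb5, and were the strongest of their clusters. The remaining 3 are an intergenic site and 2 sites in noncoding exons, and are shown because they place the core at further points of the clusters, at chr11:96261676-96261825 (9706 bp upstream of Hoxb9, signals 77 and 64), chr2:74673046-74673195 (1892 bp upstream of Hoxd12, 87 and 50) and chr2:74715886-74716035 (4034 bp downstream of the most upstream TSS of Hoxd3 and within the annotated spans of Hoxd3 and Hoxd4, 103 and 75). Capitals again mark the core.
Hoxb9 upstream: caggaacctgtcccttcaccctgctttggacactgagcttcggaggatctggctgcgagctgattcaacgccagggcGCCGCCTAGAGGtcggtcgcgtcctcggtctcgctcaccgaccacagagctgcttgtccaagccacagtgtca
Hoxd12 upstream: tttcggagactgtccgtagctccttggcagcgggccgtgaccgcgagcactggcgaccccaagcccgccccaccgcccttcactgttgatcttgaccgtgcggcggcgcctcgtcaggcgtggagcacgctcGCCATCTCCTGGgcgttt
Hoxd3 downstream: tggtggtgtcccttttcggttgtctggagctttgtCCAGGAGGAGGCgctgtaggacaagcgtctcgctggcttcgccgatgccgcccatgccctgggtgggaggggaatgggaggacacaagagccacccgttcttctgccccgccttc
Hoxc was the only cluster with no exact match in a shared site, and a match of letters is no measure of binding.

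Other short sequences were each in at most 5 of the 87 shared sites of the clusters, some above and some below their share of all shared sites. TGATTNAT, bound by HOX with PBX proteins, was in 5 of 87 sites, or 5.75%, against 1.68% of all shared sites, 4 of them in Hoxd and 1 in Hoxc. TAATCC, bound by OTX proteins of the midbrain, was in 1 site, or 1.15%, against 4.06%. That site, with signals of 103 and 68, lay 1384 bp inside the annotated Hoxa3 transcript. GCGNGGGCG, bound by EGR proteins such as Egr2, was in 2 sites, or 2.3% against 2.15%. The direct repeats of retinoic acid receptors with spacers of 5 and 2 bases and a joint PBX and MEIS sequence were in 0 sites, against 0.435%, 0.78% and 0.189% of all shared sites. In the promoter entries of the members, 24 windows of 250 bases before to 50 after the TSS, TGATTNAT was found at Hoxa2 and Hoxd11, 8.33% of entries against 3.22% of all promoters.

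Genes that act on or with Hox genes had TSS peaks in both replicates more often than the Hox genes, at 63.2%. The background was 65.5% of all protein-coding genes, and 86.9% of those with a CpG ratio at or above the lowest Hox gene. Median CpG ratios were 0.842 for Polycomb, 0.808 for trithorax and demethylase and 0.947 for CTCF and cohesin genes. They were 0.61 for TALE cofactors and 0.682 for upstream regulators, against 0.661 for Hox genes. All 30 Polycomb genes, which encode the complexes that silence Hox clusters, had TSS peaks in both replicates, with median signals of 124 and 76, and so did all 10 trithorax and demethylase genes, which oppose them. The 9 TALE cofactors, DNA-binding partners of HOX proteins such as Meis2 (121 and 69), and the 8 genes of CTCF and cohesin function were open in both as well. Of 16 upstream regulators of Hox transcription, 12 were open in both replicates, or 75%, among them Cdx4 with low signals of 17 and 12. Cdx1 (31), Cdx2 (48), Cyp26c1 (23) and Fgf8 (42) were open in replicate 2 only. Cdx genes activate central and posterior Hox genes in the tail bud, and Cyp26c1 degrades retinoic acid in the head.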

How the data were processed

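DNase-seq of midbrain at day 11.5 gave a peak list and a hotspot list for each of 2 biological replicates, on mm10 per the labels. Aligner, peak caller and filters: not given in the sources used here. Each deposited peak signal was a whole number with no stated normalization, and it was used to rank or describe peaks within a list. The −log10 q of each deposited hotspot, from 1.3 to 100, was used only as a threshold in an alternative. Repeated coordinates counted as a single row, on chromosomes 1 to 19 and X.

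TSSs were those of protein-coding transcripts of GENCODE vM21 (basic set), and sequence came from GRCm38.p6. A TSS peak has a base within 500 bp of a TSS. Merged peaks overlapped by at least 1 bp, and flanks were 200 kb. A member's position in the cluster intervals was its most used start codon, and on a tie the most upstream. Interval counts and the paralog 9 sites were added after the lists had been examined. Scripts used Python 3.11.15 and pysam 0.24.0, and the overlap functions were tested on simulated data.

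The members and the gene lists were chosen with earlier results of these data known. With 1 group and no control there was no contrast between samples to test, and genes, peaks and intervals are not replicates, so no p-value was computed and counts stand beside those over all genes or the genome. The genes described in full were, in each cluster, the 3 whose TSS signal had the highest mean percentile, all with no TSS peak and all with one in 1 replicate only, and the sites were the strongest shared site of each cluster and flank. Alternatives varied the TSS window, the transcripts, the peak and hotspot thresholds, the overlap, the flank length and the replicate used.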

Additional observations from a re-analysis of the deposited data

How the results depend on the processing

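Of 79 alternative values, 67 stayed within 1.5 times the reported count or within 1 SD of the reported value, and 12 moved further. A change of direction was not scored. Hotspot cover of the clusters was 29.8% without replicate 1 and 10.7% without replicate 2, against 20.2% reported, and these 2 values lie within 1 SD by construction, since that SD comes from the same 2 replicates. With a TSS window of 150 bp, Hox genes open in both replicates numbered 15, with 4 in Hoxa, 2 in Hoxc and 4 posterior, and the median of the mean percentile was 19.8. The other settings of the TSS count gave 22 to 26, and each replicate alone gave 26 and 32. In single replicates the count ranged from 4 to 7 in Hoxc, from 8 to 14 for posterior genes, and the median percentile from 23.1 to 27.1. Peaks of single replicates, in place of shared sites, numbered 178 to 456 in the clusters and 16.7 to 41.1 per 100 kb in the flanks. The ratio of replicate 2 to replicate 1 peaks, an alternative set added after seeing the data, ranged from 0.935 to 1.04 in the anterior, from 1.85 without Hoxa to 3.1 without Hoxc in the central and from 6.08 to 6.81 in the posterior intervals. These settings were the stronger 50% of peaks, replicate 2 limited to its strongest peaks, and each cluster or the interval between Hoxb9 and Hoxb13 left out. The limit on replicate 2 kept signals of at least 5 and removed no peak of these intervals, so those ratios could not change. Nor could the anterior ratio without Hoxc or the central ratio without Hoxd, since these clusters have no such intervals. All of these values count among the 67. Where a count moved, the cause was not tested. No paired analysis was possible because there is 1 group. Read depth is unknown, so a site missing from a list was not called there and is not shown to be closed.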
